A study of Homo sapiens with 12 samples.

Results

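Translation efficiency (TE) is the number of ribosome footprints on an mRNA relative to the amount of that mRNA, and its change was examined here between 4EHP-null and wild-type (WT) HEK293T cells. HEK293T is an established line from human embryonic kidney. RNA-seq measured mRNA, and Ribo-seq sequenced the fragments of mRNA that ribosomes protect from nuclease. Each genotype had 2 libraries per assay, so the comparison rests on 8 libraries. The cells of every group were untreated and were harvested 24 h after plating. The groups were WT cells, cells null for 4EHP, and cells lacking GIGYF1 together with GIGYF2 (GIGYF1/2-null), whose 4 libraries entered the fits for the estimate of spread and served for a few direct comparisons. The labels do not say how the null cells were made or whether each line was 1 clone, and a change in 1 clone cannot be told apart from a change due to the deletion. The series record calls the replicates biological. A gene entered when its counts passed the low-count filter in both assays over the 4EHP-null and WT libraries, which 12799 of 27011 genes did. Of the 27011, 15252 passed in RNA-seq and 14176 in Ribo-seq.

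4EHP, encoded by EIF4E2, is a relative of the cap-binding factor eIF4E that binds the mRNA cap but does not recruit eIF4G, so the small ribosomal subunit is not loaded. With its partners GIGYF1 and GIGYF2 it represses selected mRNAs, to which it is brought by proteins such as the collision sensor ZNF598, the AU-rich element binding protein tristetraprolin or the microRNA machinery. Repression of this kind can act on ribosome loading, on mRNA stability, or on both. A TE change addresses the first of these, since it subtracts the mRNA change from the footprint change.

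Total counts ranged from 26143118 to 38175701 in the RNA-seq libraries and from 6536493 to 10816080 in the Ribo-seq libraries. In the shallower assay the typical tested gene had 162 counts per library, against 1067.5 in RNA-seq. Of the HEK293T markers, NEFL, NEFM, INA, VIM and SALL1 had at least 923 counts in every RNA-seq library, and PAX2 and LHX1 had 16 to 124. PTPRC (leukocytes) and MYH7 (muscle) had 0 counts in each RNA-seq library. 4EHP-null RNA-seq replicate 2 stood apart from its replicate and from WT in RNAs that lack a poly(A) tail. It held 4884 counts of RMRP, the RNA of RNase MRP, against 14 in its replicate and 15 and 46 in WT. Symbols starting with HIST made up 236 CPM (counts scaled to the size of the library) there, against 101 CPM in its replicate and 122 CPM in each WT library. The GIGYF1/2-null libraries were at 190 and 204 CPM, with up to 479 counts of RMRP.

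The targeted gene fell in both assays, and its efficiency did not pass the test. EIF4E2 mRNA was at 124 and 124 CPM (scaled by TMM factors) in WT replicates 1 and 2 and at 51.0 and 46.7 in the 4EHP-null libraries. Footprints of the gene stood at 42.3 and 37.0 CPM in WT and at 18.9 and 13.6 in 4EHP-null. Both falls passed the test (mRNA log2 fold −1.33 ± 0.08 SE, adjusted p = 4.54e-07, and footprints −1.31 ± 0.18, adjusted p = 0.00293, edgeR quasi-likelihood test). The TE change was 0.05 ± 0.19 (adjusted p = 0.977). Which bases were deleted is not stated in the labels, and reads on the rest of a transcript say nothing of the protein.

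With Benjamini-Hochberg adjustment over all 12799 genes, 15 genes (0.117%) passed an adjusted p under 0.05, of which 14 (0.109%) were higher in 4EHP-null cells and 1 (0.00781%) was lower. Of the 15, 4 passed the low-count filter of RNA-seq through the WT libraries alone, among them NRXN3, ZNF726 and SNORD77, so their lower mRNA followed in part from how they were chosen, and their TE values are a description. At an unadjusted p under 0.05 there were 926 genes (7.23%), 438 higher (3.42%) and 488 lower (3.81%). Among the same 12799 genes, mRNA differed for 1844 (14.4%), of which 942 rose (7.36%) and 902 fell (7.05%). Footprints differed for 396 (3.09%), of which 183 rose (1.43%) and 213 fell (1.66%). Over all genes that passed the filter of 1 assay there were 2050 mRNA calls (13.4%) and 458 footprint calls (3.23%). The median SE of a log2 change was 0.21 for TE, 0.11 for mRNA and 0.18 for footprints, so TE was the least precise of the 3 measures. The TE changes of all genes were centred at a median of −0.01, with the 5th and 95th percentiles at −0.49 and 0.55.

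Where an mRNA rose or fell, its footprint change mostly had the same sign. Of the 1844 genes with a called mRNA change, 1714 (93.0%) had a footprint change of the same sign, against 66.0% of the 10955 genes with no mRNA call. Footprints were themselves called in the direction of the mRNA in 288 of the 1844 genes and against it in 2, FSD2 and NANOS1. For the 145 genes whose mRNA rose at least 2-fold, the median log2 change was 1.39 in mRNA and 1.04 in footprints. For the 127 whose mRNA fell at least 2-fold it was −1.47 and −1.27. TE is computed from these same libraries, so an error in the mRNA change enters TE with the opposite sign.

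**Figure D1:**
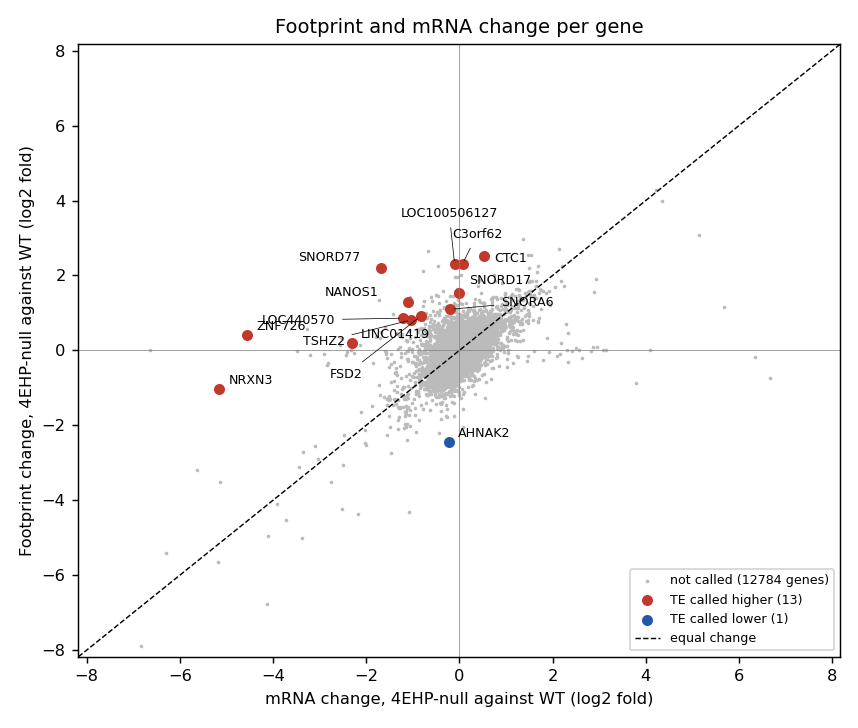
Each point is 1 tested gene, with its log2 mRNA change (x axis) and log2 footprint change (y axis) in 4EHP-null against WT; the dashed line marks equal change, and the vertical distance from it is close to the TE change. The genes called higher in TE (red) lie above the line, with NRXN3 and ZNF726 far to the left, and AHNAK2 (blue) lies below it.

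In several gene lists, called mRNA and footprint changes had the same direction, and 3 of these lists are described here. They are to be read beside the shares of all tested genes given above (7.36% higher and 7.05% lower in mRNA, 1.43% higher and 1.66% lower in footprints). The pattern was also seen in mitochondrial ribosomal proteins (mRNA lower in 13 of 72, footprints in 2) and snoRNA host transcripts (12 of 14 and 2). Of 30 collagen and extracellular matrix genes measured, mRNA rose in 11 and footprints in 4, none fell in either assay, and none was called in TE (median TE −0.11, with 8 of 30 above 0). Of 19 neuronal and developmental genes, mRNA fell in 10 and footprints in 9 (median −0.55 and −0.52), and NRXN3 alone was called in TE. Of 22 interferon-stimulated and RNA-sensing genes, mRNA rose in 7 and footprints in 3, and the median TE change was 0.07.

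The 15 genes called for TE were of several kinds. By RefSeq, 9 were protein-coding, 3 were small nucleolar RNAs (snoRNAs, which guide modification of ribosomal RNA and are not translated), 2 were long non-coding RNAs and 1 had no match. In 7 genes the footprints changed with no called mRNA change, in 4 the mRNA fell with no called footprint change, in 2 the assays were called in opposite directions, and in 2 both were called in the same direction. Calls were made among weakly expressed genes, with 11 of the 15 in the lowest of 5 equal bins of mRNA level and 4 in the next. Several had an unusual ratio of footprints to mRNA before any comparison. In WT the ratio of CPM values had a median of 0.784 over all tested genes and a 95th percentile of 3.41, and 8 of the 15 lay above that percentile.

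**Figure D2:**
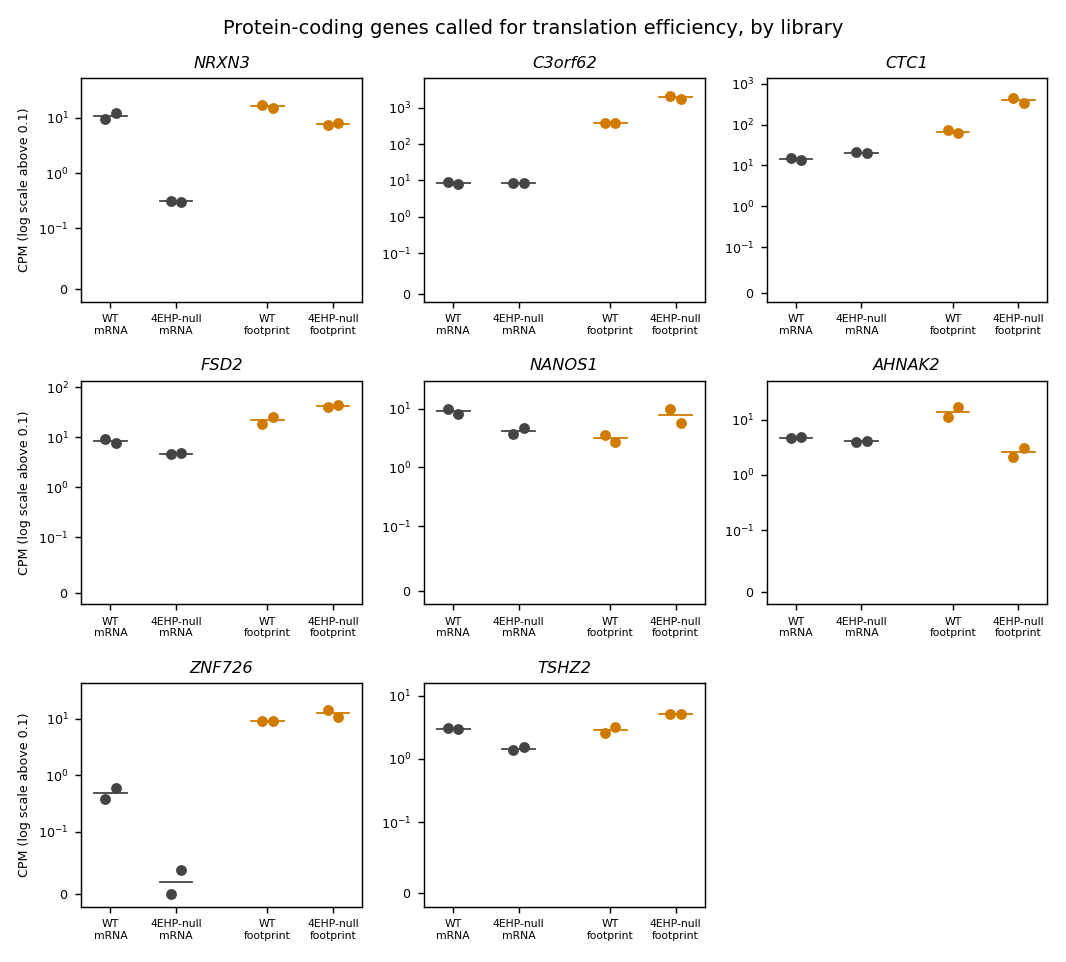
CPM of 8 protein-coding genes called for TE, with mRNA in grey and footprints in orange, 1 point per library and a line at the mean of the 2 libraries (log scale above 0.1 CPM, linear below). Footprints of C3orf62 and CTC1 are higher in both 4EHP-null libraries, while for NRXN3 and ZNF726 the mRNA is far lower with a smaller footprint difference.

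C3orf62 and CTC1 were the clearest cases in which footprints rose beyond the mRNA. CTC1 is a subunit of the CST complex, which helps copy telomere ends. Footprints were at 72.2 and 62.8 CPM in WT and at 448 and 331 CPM in 4EHP-null, with no overlap. Its mRNA was at 14.8 and 13.7 CPM in WT and at 20.9 and 19.6 CPM in 4EHP-null. The footprint log2 fold was 2.51 ± 0.17 (adjusted p = 2.86e-05), that of mRNA 0.52 ± 0.11 (adjusted p = 0.00803), and TE rose by 2.02 ± 0.20 on the log2 scale (adjusted p = 0.000165, edgeR quasi-likelihood test). Both assays were higher in 4EHP-null cells, and the footprints by far more.

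C3orf62 is a little-characterised protein-coding gene. Its mRNA hardly differed, at 9.06 and 7.75 CPM in WT and 8.74 and 8.72 CPM in 4EHP-null. Footprints, in contrast, were at 371 and 389 CPM in WT and at 2132 and 1708 CPM in 4EHP-null. The groups overlapped in mRNA and stood far apart in footprints, and TE rose by 2.28 ± 0.20 (adjusted p = 7.29e-05, edgeR). The WT ratio of footprints to mRNA was 45.3, above 99.2% of all tested genes. LOC100506127, which had no RefSeq match, had nearly the same footprint counts in each library (2348, 3806, 12138 and 11245, against 2309, 3726, 12073 and 11178 for C3orf62), so the 2 symbols cannot be told apart in Ribo-seq. Its TE change was 2.43 ± 0.27 (adjusted p = 0.000574), which is not a separate result.

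Both loci contain small RNA genes in the RefSeq table (GRCh38.p14, used for names alone, since the counts were made on hg19). CTC1 contains the tRNA genes TRT-AGT1-2, TRS-AGA2-6 and TRI-AAT4-1, and C3orf62 contains MIR4271 and overlaps USP4. The long non-coding LOC440570 contains a glutamate tRNA gene, and FSD2 contains SCARNA15, a small Cajal body RNA. Of 11794 tested genes found there by symbol that are no small RNA themselves, 26 (0.220%) contained a tRNA gene and 1295 (11.0%) contained a tRNA, snoRNA, microRNA, small nuclear or SCARNA gene. Among the 11 called genes of this kind, 2 contained a tRNA gene and 4 any such gene. The files give 1 count per gene and not the place of a read within it, so whether these reads came from coding sequence was not tested.

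LOC440570 had the highest WT ratio of footprints to mRNA among the genes described here, with 2683 and 3113 CPM of footprints in WT over 1.26 and 1.95 CPM of mRNA. In 4EHP-null cells its footprints were at 5418 and 5238 CPM and its mRNA at 0.428 and 0.990 CPM. Footprints rose (log2 fold 0.86 ± 0.19, adjusted p = 0.0282), the mRNA difference did not pass (adjusted p = 0.0723), and TE rose by 2.12 ± 0.38 (adjusted p = 0.0454). The call was lost in 7 of the 8 fits that each left out 1 library, all but the one without 4EHP-null RNA-seq replicate 2.

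The 3 snoRNAs showed counts in the footprint libraries that rose with no called change in RNA-seq. SNORD77, which lies in an intron of GAS5, was at 11.4 and 13.7 CPM in WT Ribo-seq and at 58.1 and 59.4 CPM in 4EHP-null. SNORA6, in the ribosomal protein gene RPSA, was at 49.1 and 47.0 CPM against 99.6 and 108 CPM. SNORD17, in SNX5, was at 13.4 and 13.8 CPM against 43.6 and 36.8 CPM. In each of these snoRNAs both 4EHP-null Ribo-seq libraries lay above both WT libraries. Their TE changes were 3.90 ± 0.68, 1.32 ± 0.23 and 1.59 ± 0.26 (adjusted p = 0.039, 0.0394 and 0.0258), and of the 8 fits that each left out 1 library their calls were kept in 1, 0 and 3. SNORD77, which passed the RNA-seq filter through WT alone, had only 10 RNA-seq counts in 4EHP-null and 37 in WT. Its log2 change was −1.69 ± 0.65 in RNA-seq, which did not pass, and 2.19 ± 0.22 in Ribo-seq, and both enter its TE value. Since these RNAs are not translated, the values are ratios of counts in the 2 kinds of library and not efficiencies of translation.

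In a second set, mRNA was lower by far more than footprints. NRXN3, a neurexin that acts as a presynaptic adhesion protein in neurons, had 9.71 and 12.4 CPM of mRNA in WT and 0.306 and 0.305 CPM in 4EHP-null. Footprints of NRXN3 were at 17.4 and 14.9 CPM in WT and at 7.59 and 8.25 CPM in 4EHP-null. Both assays fell, mRNA by 5.15 ± 0.26 and footprints by 1.03 ± 0.19 on the log2 scale (adjusted p = 7.95e-08 and 0.0137), and the TE change was 4.14 ± 0.34 (adjusted p = 5.32e-05). In each assay both 4EHP-null libraries lay below both WT libraries, and the distance was far larger in mRNA. NRXN3 passed the RNA-seq filter through its WT counts alone, so its TE value is a description.

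ZNF726, a zinc finger gene with close paralogs, had 1 RNA-seq count over both 4EHP-null libraries and 33 over WT. The ratio was 0.0340 (95% interval 0.000836 to 0.203, for counting alone and without the spread between replicates). The gene passed the RNA-seq filter through WT alone, so this ratio is a description. In Ribo-seq ZNF726 was at 9.33 and 9.30 CPM in WT and at 14.3 and 10.8 CPM in 4EHP-null, a difference that did not pass the test (adjusted p = 0.315). It entered the test through its WT RNA-seq counts alone, so its TE value is a description, and the call was lost in 6 of the 8 fits that each left out 1 library.

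The long non-coding LINC01419 was at 7.48 and 9.24 CPM of RNA in WT and at 1.47 and 1.90 CPM in 4EHP-null. Its Ribo-seq values overlapped between the genotypes, at 2.73 and 5.02 CPM against 4.06 and 5.19 CPM. The TE change of 2.52 ± 0.41 (adjusted p = 0.0228) went with a fall of the RNA (log2 fold −2.32 ± 0.19), and the call was kept in 4 of the 8 fits that each left out 1 library. TSHZ2, a zinc finger transcription factor, was at 3.08 and 2.93 CPM of mRNA in WT and 1.38 and 1.52 CPM in 4EHP-null. In Ribo-seq it was at 2.57 and 3.14 CPM against 5.12 and 5.19 CPM, but their change did not pass alone (adjusted p = 0.141). Its TE change was 1.88 ± 0.34 (adjusted p = 0.0454), and the call was lost whichever library was left out.

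FSD2 and NANOS1 changed in opposite directions in the 2 assays. NANOS1 is an RNA-binding protein that with Pumilio proteins represses mRNAs and recruits the CCR4-NOT deadenylase. Its mRNA was at 10.01 and 8.18 CPM in WT and at 3.67 and 4.72 CPM in 4EHP-null, while its footprints were at 3.54 and 2.72 CPM in WT and at 9.89 and 5.65 CPM in 4EHP-null. The groups stood apart in both assays, low in mRNA and high in footprints without 4EHP. The mRNA fell by 1.11 ± 0.19 and footprints rose by 1.30 ± 0.32 on the log2 scale (adjusted p = 0.00223 and 0.0497), which gave a TE change of 2.44 ± 0.39 (adjusted p = 0.0228). The Ribo-seq counts behind this were 22, 26, 56 and 37. NANOS1 also overlaps EIF3A in the RefSeq table, and the call was kept in 4 of the 8 fits that each left out 1 library.

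FSD2, a muscle-associated gene of the fibronectin type III and SPRY domain family, was at 9.12 and 7.77 CPM of mRNA in WT and at 4.56 and 4.84 CPM in 4EHP-null. In Ribo-seq it was at 18.2 and 26.02 CPM against 40.3 and 44.8 CPM. Neither assay overlapped between genotypes. The TE change was 1.77 ± 0.28 (adjusted p = 0.0228), and the call was kept in 2 of the 8 such fits.

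AHNAK2, a giant scaffold protein of the AHNAK family, was the single gene called lower in TE. Its mRNA was at 4.75 and 4.77 CPM in WT and at 3.94 and 4.19 CPM in 4EHP-null. Its footprints were at 11.1 and 16.7 CPM in WT and at 2.12 and 3.06 CPM in 4EHP-null. Footprints fell by 2.45 ± 0.31 on the log2 scale (adjusted p = 0.00157), the mRNA difference did not pass (−0.22 ± 0.18, adjusted p = 0.463), and TE fell by 2.21 ± 0.35 (adjusted p = 0.0228). The call was kept in 2 of the 8 fits that left out a library. With those fits set aside, no alternative lost the call of AHNAK2, NRXN3, C3orf62, CTC1, LOC100506127, FSD2, LINC01419, NANOS1, SNORD17 or SNORD77 where it tested them. Over all alternatives, those fits included, TE changes ranged from 3.94 to 4.30 for NRXN3 and from 2.11 to 2.43 for C3orf62. They ranged from 1.79 to 2.23 for CTC1 and from 2.22 to 2.59 for LOC100506127. NRXN3 passed the RNA-seq filter through WT alone, and refits of the same filtered gene do not remove that limit.

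Of the 25 gene lists, the cytosolic ribosomal proteins had the highest share of TE changes above 0. These mRNAs begin with a 5′ terminal oligopyrimidine (TOP) tract, a cytidine followed by a run of pyrimidines, through which growth signalling by mTOR and the cap-binding protein LARP1 set their translation. None of 80 measured members was called in TE. Their TE changes nevertheless lay above 0 in 76 of 80, against 48.3% of all tested genes, with a median of 0.23 and a range of −0.11 to 0.41. Their mRNA fell in 48 of 80 (median log2 change −0.36), against 7.05% of all tested genes. No member was called in footprints (median −0.16). Only 3.09% of all tested genes were, so the lack of a call among 80 says little of these genes. The list median was 0.13 without 4EHP-null Ribo-seq replicate 1 and up to 0.28 without another library, and kept its sign in all 19 alternatives. The members share their libraries, so their common sign is not 80 separate observations.

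RPL9, in the large subunit, had the smallest unadjusted p of them. Its mRNA was at 1400 and 1430 CPM in WT and at 1041 and 1105 CPM in 4EHP-null, and its footprints were at 1170 and 1206 CPM in WT and at 1262 and 1120 CPM in 4EHP-null. The mRNA groups did not overlap and the footprint groups did. The mRNA fell by 0.39 ± 0.10 on the log2 scale (adjusted p = 0.0203), and the TE change was 0.40 ± 0.16 (unadjusted p = 0.027, adjusted p = 0.614, edgeR). RPS9 had the lowest TE value of the list, −0.11 ± 0.18.

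Of 8 ribosomal protein genes with an unadjusted p under 0.05 for TE, the start-site sequences of 5 are shown. They are from RefSeq (GRCh38.p14), each 24 bases on the gene's strand, with a pyrimidine run in capitals. The tract is described for these mRNAs as a class, and a marked run need not be that tract.

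RPL9: cgttCTTTCTTTgctgcgtctact

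RPL14: gggtCTTCTTCCTTCTCgcctaac

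RPS12: gaggCCTCTTTCCCTgccgccgcc

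RPS27: ttcgCTCCTTTCCggcggtgacga

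RPS13: ctcgCTCTCCTTTCgttgcctgat

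They lie at chr4:39458896-39458919 (minus strand), chr3:40457328-40457351 (plus), chr6:132814564-132814587 (plus), chr1:153990756-153990779 (plus) and chr11:17077652-17077675 (minus). With the annotated start as base 1 and the base before it as −1, the runs begin at bases 8, −7, −1, −2 and −4. A run was a C followed by at least 6 bases that are C or T, sought on the gene's own strand from 15 bases before to 30 after the annotated start. It was found in 58 of 65 cytosolic ribosomal protein genes with a start sequence (89.2%), in 11 of 15 other TOP genes, and in 25.6% of 9504 other tested genes. Over those other genes the median TE change was −0.01 with the run and −0.02 without it. A match says only that the letters are there.

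Other TOP mRNAs, which encode translation factors and RNA-binding proteins, leaned the same way. Of 21 measured, 19 had a TE change above 0 (median 0.15) and none was called. The mRNA fell in 6, against 7.05% of all tested genes. The median was 0.06 without 4EHP-null Ribo-seq replicate 1 and 0.30 without replicate 2. PABPC1, the cytoplasmic poly(A)-binding protein, had the largest value. Its mRNA was at 1025 and 930 CPM in WT and at 821 and 779 CPM in 4EHP-null, and its footprints were at 435 and 397 CPM in WT and at 583 and 493 CPM in 4EHP-null. No value overlapped in either assay, low in mRNA and high in footprints, but neither change passed, nor did the TE change of 0.66 ± 0.20 (unadjusted p = 0.00453, adjusted p = 0.402). EIF3L, a subunit of the initiation factor eIF3, was at 0.34 ± 0.14 (unadjusted p = 0.0308). Mitochondrial ribosomal proteins, whose mRNAs are nuclear but do not carry the tract as a class, had 40 of 72 members above 0 and a median of 0.04.

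The snoRNA host transcripts, whose introns hold snoRNAs and many of which start with a TOP tract, fell in RNA-seq in 12 of 14. Among all tested genes the share that fell was 7.05%. Their median TE change was 0.18, with 10 of 14 above 0 and none called. It was 0.06 without 4EHP-null Ribo-seq replicate 1 and 0.24 without replicate 2. ZFAS1, a non-coding host, had 67.4 and 69.5 CPM in WT RNA-seq and 44.8 and 47.1 CPM in 4EHP-null, and its TE change was 0.38 ± 0.16 (unadjusted p = 0.0288).

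**Figure D3:**
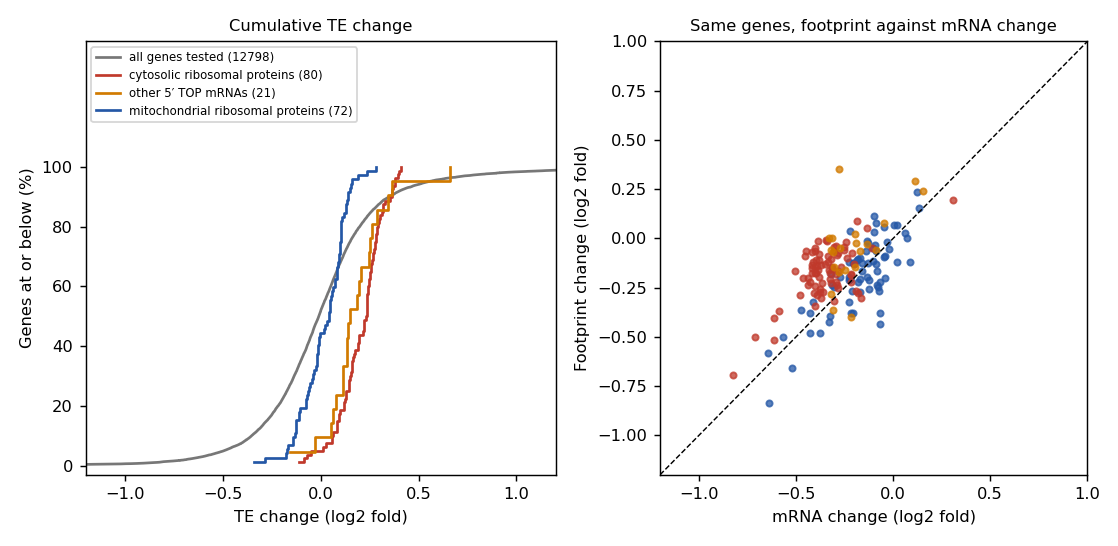
Left, cumulative share of genes (percent) at or below each log2 TE change for all tested genes, 80 cytosolic ribosomal proteins, 21 other TOP mRNAs and 72 mitochondrial ribosomal proteins; right, log2 footprint change against log2 mRNA change for the 3 lists in the same colours, with the dashed line at equal change. The cytosolic ribosomal protein curve lies to the right of that of all genes over most of its range, and most of its points lie above the line, with mRNA lower and footprints less so.

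The polyamine enzymes and antizymes leaned the other way. Polyamines are small cations needed for growth, and several enzymes that make them are under translational feedback. Of 12 measured, 9 had a TE change below 0 (median −0.15), none was called, and the footprints of AMD1, SRM and ODC1 fell. Among all tested genes, footprints fell in 1.66%. The median lay between −0.24, without WT Ribo-seq replicate 2, and −0.11 when each library was left out in turn. AMD1, S-adenosylmethionine decarboxylase, was at 107 and 94.2 CPM of footprints in WT and at 48.0 and 57.1 CPM in 4EHP-null. Its mRNA was at 498 and 516 CPM in WT and at 464 and 479 CPM in 4EHP-null. Footprints fell by 0.95 ± 0.20 on the log2 scale (adjusted p = 0.025), the mRNA difference did not pass (−0.09 ± 0.08), and neither did the TE change of −0.82 ± 0.23 (unadjusted p = 0.00278, adjusted p = 0.31). SRM, spermidine synthase, was at −0.45 ± 0.18 in TE (unadjusted p = 0.0258) and ODC1, ornithine decarboxylase, at −0.27 ± 0.16.

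The AMD1 leader is known for a short upstream open reading frame at which ribosomes stall when polyamines are abundant. It is shown here, from RefSeq (GRCh38.p14, chr6:110874792-110874816, plus strand), with the reading frame in capitals from its start to its stop codon.

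AMD1: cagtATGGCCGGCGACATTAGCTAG

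A complete reading frame of this kind within the first 50 transcribed bases was found in 7.88% of tested genes with a start sequence. Their median TE change was −0.01.

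Among the iron-regulated mRNAs, neither ferritin chain passed the TE test. FTH1 and FTL, the chains of the iron store ferritin, carry an iron-responsive element that blocks translation when iron is scarce. FTH1 footprints were at 323 and 329 CPM in WT and at 483 and 546 CPM in 4EHP-null, while its mRNA was at 888 and 909 CPM against 951 and 954 CPM. The TE changes were 0.58 ± 0.23 for FTH1 and 0.54 ± 0.25 for FTL (unadjusted p = 0.026 and 0.0477). Neither passed adjustment (0.61 and 0.681). Of all 18 selenoprotein and iron-regulated mRNAs, 12 were above 0 and none was called. GPX4, a selenoprotein that removes lipid peroxides, fell in footprints (adjusted p = 0.0421), and its TE change was −0.36 ± 0.21 (adjusted p = 0.796).

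The repressor complex and its partners showed no called TE change among 15 measured genes, of which 10 lay above 0 (median 0.05). GIGYF1 had 9.65 and 7.42 CPM of footprints in WT and 10.6 and 13.8 CPM in 4EHP-null, over mRNA of 41.5 and 41.1 CPM against 38.9 and 39.3 CPM. Its TE change was 0.63 ± 0.24 (unadjusted p = 0.0209, adjusted p = 0.579). GIGYF2 was at 0.49 ± 0.28 and ZNF598 at −0.20 ± 0.15. The 4E-binding and scaffold list (eIF4E, 4E-BPs and eIF4G) had a median of 0.07 over 15 genes. In the deadenylation, decapping and decay list NANOS1 was the single call among 31 genes, and the median was 0.02.

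Lists of AU-rich, stress-response and microRNA pathway genes had medians near that of all genes. The microRNA list holds the machinery and not the mRNAs it targets. AU-rich and immediate early mRNAs had a median TE change of −0.06 (26 genes), uORF-controlled and integrated stress response mRNAs −0.03 (34 genes) and the microRNA pathway 0.03 (14 genes). No member of these lists was called. JUND, an AP-1 factor, rose in mRNA from 25.4 and 23.4 CPM in WT to 36.9 and 34.8 CPM in 4EHP-null. Its footprints were at 11.4 and 7.52 CPM in WT and at 9.18 and 10.1 CPM in 4EHP-null, where the groups overlapped, and its TE change was −0.49 ± 0.25 (unadjusted p = 0.071). CEBPG, a bZIP partner of ATF4, was at −0.59 ± 0.15 in TE (unadjusted p = 0.00117, adjusted p = 0.23). AGO1, the Argonaute that carries microRNAs, was at −0.55 ± 0.18 (unadjusted p = 0.00679).

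Housekeeping lists sat near 0 as well. Median TE changes were 0.01 for oxidative phosphorylation (60 genes), 0.06 for the proteasome (33), −0.06 for chaperones and the unfolded protein response (38), −0.01 for sterol and fatty acid synthesis (24) and 0.03 for other initiation and elongation factors (35). They were 0.01 for G1/S and replication genes (28), 0.04 for G2/M genes (26), 0.03 for ribosome collision and quality control (24) and −0.06 for nonsense-mediated decay factors (14). Single members lay far from these medians. ATP5G3, a subunit c gene of ATP synthase, was at 0.90 ± 0.24 (unadjusted p = 0.00168), and POLA1, DNA polymerase alpha, at 0.43 ± 0.18 (unadjusted p = 0.0327). CENPF, a kinetochore protein, was at −0.61 ± 0.22 (unadjusted p = 0.0137) and E2F1, a transcription factor of S-phase genes, at −0.54 ± 0.23 (unadjusted p = 0.0329). CRELD2, an endoplasmic reticulum chaperone, was at −0.53 ± 0.17 (unadjusted p = 0.00768). None of these 5 passed adjustment. HSPA1A had the highest value of the chaperone list, 3.10, which did not pass either (adjusted p = 0.817, edgeR).

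Replication-dependent histones had the lowest median, −1.18 over 12 measured genes, and that value rested on 1 library. Their mRNAs end in a stem-loop instead of a poly(A) tail. HIST1H4H was at 0.205 and 0.406 CPM in WT RNA-seq and at 0.306 and 2.97 CPM in 4EHP-null, where replicate 2 alone was high. Its footprints were at 755 and 774 CPM in WT and at 552 and 686 CPM in 4EHP-null. Without 4EHP-null RNA-seq replicate 2, the library rich in RMRP, the list median was 0.26, and without replicate 1 it was −1.88. The medians of the other lists moved far less between these fits. None of the 12 was called, and histone copies share reads, so single members are uncertain.

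**Figure D4:**
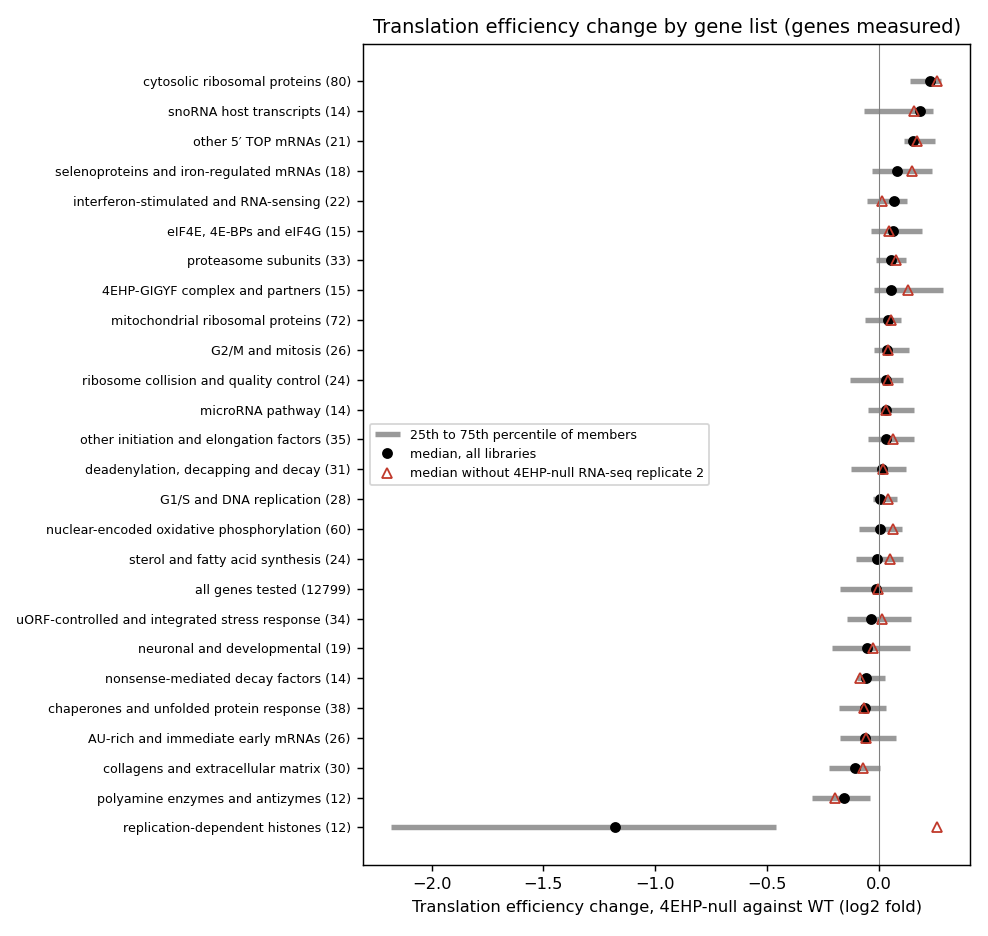
Median log2 TE change of each gene list (circles, with the grey bar from the 25th to the 75th percentile of its members; number of genes measured in parentheses) and the median without 4EHP-null RNA-seq replicate 2 (triangles). Cytosolic ribosomal proteins lie at 0.23, all genes at −0.01, and histones move from −1.18 to 0.26.

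The authors' deposited TE table lists 9870 genes for this comparison, of which 50 (0.507%) have an adjusted p under 0.05, 23 higher and 27 lower. Of the 27 lower genes, 17 have symbols starting with HIST. Of those 50 genes, 38 were tested here and 4 were called. Of the 15 genes called here, the authors' deposited table lists C3orf62, CTC1, LINC01419 and NANOS1, all 4 with an adjusted p under 0.05 and the same sign. That table is of the same series and comparison, so it is not a separate measurement. The deposited log2 TE changes for these 4 genes are 2.30, 2.04, 2.59 and 2.45. The authors' deposited table also calls AMD1 (−0.81, adjusted p = 0.000403), FTH1 (0.59, adjusted p = 0.00257) and PABPC1 (0.68, adjusted p = 0.00709), whose changes here were of the same size but did not pass.

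GIGYF1/2-null cells share the WT libraries with the comparison above, so the 2 TE changes against WT are only set side by side. Against WT, GIGYF1/2-null gave 6 TE calls (0.0469%). C3orf62 was at 2.28 in 4EHP-null and 1.33 ± 0.20 in GIGYF1/2-null, CTC1 at 2.02 and 0.62 ± 0.20, and TSHZ2 at 1.88 and 1.74 ± 0.32. The ribosomal protein list had medians of 0.23 and 0.29. Tested directly in the same fit, in which WT entered only the spread and the filter, TE differed between the knockouts for 20 genes (0.156%). The contrast reuses the 4EHP-null libraries behind the calls against WT, so it is not a separate test of genes called there. NRXN3 was higher in 4EHP-null by 3.79 ± 0.35 on the log2 scale and CTC1 by 1.41 ± 0.19 (adjusted p = 0.000102 and 0.00594). For C3orf62 the difference was 0.95 ± 0.20 (adjusted p = 0.107), and for TSHZ2 0.15 ± 0.33 (adjusted p = 0.987).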

How the data were processed

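RNA-seq and Ribo-seq of WT, 4EHP-null and GIGYF1/2-null HEK293T cells were used, 12 libraries with 2 per genotype and assay. The authors deposited unnormalized counts of reads for each gene symbol. Bowtie2, TopHat2, edgeR and the build hg19 are named in the submitters' processing notes, with no versions. No source used here names the counting tool, annotation or strandedness, which leaves overlapping genes uncertain. Per the file headers, the authors' deposited comparison table gives TE as a ratio, its change on a log2 scale, and p-values, unadjusted and adjusted.

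Counts were fitted in R 4.3.3 with edgeR 4.0.16. Genes passing filterByExpr over the 4EHP-null and WT columns in both tables were kept, with TMM scaling within each assay. TE was tested as the interaction of assay and genotype by a two-sided quasi-likelihood F-test over all 12 libraries, and mRNA and footprints by fits of the 6 libraries of an assay, with Benjamini-Hochberg adjustment and a threshold of 0.05. CPM values are over the tested genes. Of tested genes, 12629 (98.7%) had a RefSeq biotype. Replicates of a group differed by more than sampling noise. The labels do not say that replicates are separate cultures, and p-values then measure only the spread between these samples. Counting intervals are exact at 95%.

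The genes examined and the 25 gene lists were chosen with earlier results of these data known. Named genes were EIF4E2, GIGYF1, GIGYF2 and ZNF598, up to 14 called coding genes per direction with a mean of at least 20 counts in both assays and 4EHP-null values on 1 side of WT, and up to 3 members per list and direction. Other genes were named after their values were seen. The fit was tested on simulated data. Alternatives were other scaling (RLE, upper quartile), low-count filters (none, or 50 counts), DESeq2 1.42.0, limma-voom (limma 3.58.1), fewer libraries, replicate blocks and leaving out each library. Protein length was not used here. The values of 1 called gene are not reported here, though counts over genes include it.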

Additional observations from a re-analysis of the deposited data

Results flagged for a closer look

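These results differed between the 2 knockouts, tested as the TE change of 4EHP-null minus that of GIGYF1/2-null in the edgeR fit of 12 libraries. That contrast holds no WT values, but the WT libraries entered the estimate of spread and the gene filter. It also reuses the 4EHP-null libraries by which NRXN3, CTC1, LINC01419 and ZNF726 were called against WT. For those genes it is therefore not a separate test. NRXN3 differed by 3.79 on the log2 scale (adjusted p = 0.000102) and CTC1 by 1.41 (adjusted p = 0.00594). LINC01419 differed by 2.83 (adjusted p = 0.00594). ZNF726 differed by 5.13 (adjusted p = 0.0136), with 1 RNA-seq count over the 4EHP-null libraries, and like NRXN3 it passed the RNA-seq filter through WT alone. PABPC1 differed by 1.11 (adjusted p = 0.0407), at 0.66 in 4EHP-null and −0.45 in GIGYF1/2-null against WT, neither of which passed alone. GIGYF1, a gene deleted in the other knockout, differed by 1.57 (adjusted p = 0.0415).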

How the results depend on the processing

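No called result reversed direction under any alternative run. The 15 TE calls (14 higher, 1 lower) were the same 15 under RLE and upper-quartile scaling, 15 under limma-voom, of which 13 were shared (not LOC440570 and SNORA6), and at 14 with no low-count filter. They were 8 (7 higher) with the stricter filter and 23 (20 and 3) with DESeq2, of which 13 were shared (not TSHZ2 and ZNF726). With only the 4EHP-null and WT libraries they were 22 (20 and 2), of which 14 were shared (not TSHZ2). TSHZ2 was also not called with no low-count filter. After the data were seen, 2 settings were added: protein-coding genes alone gave 8 calls (7 higher), and at least 20 counts per library in both assays gave 12. Leaving out a library gave 5 to 34 TE calls, 5 to 14 higher and 0 to 24 lower. The 34 came without 4EHP-null RNA-seq replicate 1, where 15 of them had HIST symbols and replicate 2, rich in RMRP, stood alone. In the same fits mRNA calls, 2050 with all libraries, were 865 to 1055, footprint calls, 458 with all, were 110 to 134, and calls in gene lists, 2 with all, were 1 to 10. TE calls between the knockouts, 20 with all, were 7 to 29. The stricter filter gave 1 call in gene lists and 3 between the knockouts, and DESeq2 gave 35 between the knockouts. Footprint calls were 1178 with no filter and 769 with only the libraries compared. The cause of these moves was not tested beyond the fewer libraries in them.

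The labels pair no samples by replicate number. Replicate differences of the same number correlated across genes at 0.137 to 0.295 in RNA-seq and 0.133 to 0.357 in Ribo-seq over the 3 pairs of genotypes. With the number as a replicate block within each assay there were 82 TE calls (56 higher, 26 lower), 3594 mRNA calls, 1780 footprint calls, 8 calls in gene lists and 104 between the knockouts, with AMD1, PABPC1, ATP5G3 and HIST1H4H among the TE calls. A replicate block that joined the RNA-seq and Ribo-seq libraries of a genotype and number gave 34 TE calls (30 higher, 4 lower) and 46 between the knockouts. The typical gene had 162 footprint counts per library, and the median SE of 0.21 limits which TE changes were detectable at this depth.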

Other observations

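The spread of TE changes followed depth. In the lowest of 5 equal bins of mRNA level, with a median of 28.25 footprint counts per library, the 5th and 95th percentiles were −0.81 and 1.21, and 268 of the 296 genes with a TE change of at least 2-fold lay there. In the highest bin, with a median of 924.5 footprint counts, they were −0.34 and 0.24, and no gene reached 2-fold. Non-coding or unmatched symbols (1101 genes) had a median TE change of 0.18, against −0.02 for 11698 protein-coding genes. From the shortest to the longest of 5 bins of gene model length, 104, 60, 56, 35 and 41 genes had a TE change of at least 2-fold, and the medians lay between −0.02 and −0.00048.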
